A study of Homo sapiens with 24 samples.

Results

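The genes described here are the collagens, laminins and integrins and the enzymes that build or cut the extracellular matrix, in U2OS cells, a human osteosarcoma line. They were chosen by name: the symbol had to start as a collagen, laminin, integrin alpha or beta, PLOD, P4HA, LOX, MMP or TIMP gene, or be FN1 or SPARC, and the mean over all 24 libraries had to reach 1 TPM. TPM corrects for the length of a transcript and gives its share of a library. The name rule matched 130 gene symbols, of which 49 reached 1 TPM and are called members below. They stand among 13416 genes of the whole table that passed the same limit, out of 25341 symbols. Of the 49, 13 are collagens, 8 laminins, 6 integrin alpha chains, 3 integrin beta chains, 6 collagen hydroxylases, 3 lysyl oxidases, 4 metalloproteinases and 4 TIMPs. The other 2 were caught by the name rule without belonging to these families: COL4A3BP, which encodes a ceramide transfer protein, and MMP24-AS1, an antisense transcript of MMP24.

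The induced arm was grown without doxycycline, which switches on Tob2-S254D, a phosphomimetic form of TOB2, and the uninduced arm was grown with doxycycline. Both arms are 1 custom-made Tet-off double stable line, so effects of doxycycline and of the mutant protein cannot be told apart. Cells were labelled with bromouridine, the label was chased, and labelled RNA was recovered with an antibody from cytoplasmic RNA at 0, 0.5, 1, 2, 4 and 6 h of chase. There were 2 libraries for each arm and time, numbered replicate 1 and 2, and nothing in the labels says that they came from separate cultures, so p-values measure only the spread between these libraries, which may be technical.

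Fibrillar and network collagens are built as triple helices of 3 chains in the endoplasmic reticulum. Prolyl 4-hydroxylases (P4HA subunits) and lysyl hydroxylases (PLOD) modify the chains there, and lysyl oxidases cross-link the finished fibres outside the cell. Laminins are heterotrimers of an alpha, a beta and a gamma chain that form the sheet of basement membranes, and integrins are heterodimers of an alpha and a beta chain that bind these matrices and tie them to the actin skeleton. Matrix metalloproteinases cut matrix proteins, and TIMPs inhibit them. TOB2 belongs to a family of proteins that bring a deadenylase complex to mRNAs. Bone cells are known for secreting a matrix rich in type I collagen.

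The bases just before the transcription start are shown for ITGB1 and PLOD2, which had among the steepest slopes of the members, and for COL4A1 and COL4A2, partner chains whose genes start back to back from 1 short stretch. The sequences are from RefSeq on GRCh38.p14, written 5′ to 3′ on the strand given. Capitals mark 4 motifs: the CCAAT box, the GC box with the letters GGGCGG, the TATA box with the letters TATAA, and the core of hypoxia response elements with the letters ACGTG. No motif overlaps another in the sequences shown. They were searched on both strands, so that a motif on the opposite strand is printed as its reverse complement.
COL4A1-COL4A2, chr13:110307158-110307283, plus strand: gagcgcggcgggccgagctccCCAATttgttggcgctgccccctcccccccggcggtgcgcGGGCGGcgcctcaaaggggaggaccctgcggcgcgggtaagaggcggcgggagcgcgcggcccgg
ITGB1, chr10:32958231-32958480, minus strand: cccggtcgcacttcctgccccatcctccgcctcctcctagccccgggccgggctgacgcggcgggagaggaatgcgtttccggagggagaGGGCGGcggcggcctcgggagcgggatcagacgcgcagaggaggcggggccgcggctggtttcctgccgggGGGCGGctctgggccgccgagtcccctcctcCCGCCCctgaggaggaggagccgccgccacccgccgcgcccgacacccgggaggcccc
PLOD2, chr3:146161185-146161434, minus strand: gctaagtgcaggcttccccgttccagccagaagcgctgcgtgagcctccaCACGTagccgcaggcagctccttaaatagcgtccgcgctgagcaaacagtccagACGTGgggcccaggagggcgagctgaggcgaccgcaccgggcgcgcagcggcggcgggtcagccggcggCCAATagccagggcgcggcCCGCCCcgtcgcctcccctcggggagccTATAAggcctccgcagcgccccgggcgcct
The 126 bases between COL4A1 and COL4A2 held 1 CCAAT and 1 GC box and no TATAA or ACGTG. The 250 bases before the outermost start of ITGB1, shown above, held 3 GC boxes and none of the other motifs. Another promoter entry of ITGB1 held 5 TATAA, counted on both strands, and none of the other motifs in the 250 bases before its start. The 250 bases before PLOD2 held each of the 4 motifs, with 2 copies of ACGTG, a sequence bound by hypoxia-inducible factors. Over all 35116 promoter entries, 42.6% held a GC box, 32.0% a CCAAT, 18.9% a TATAA and 18.5% an ACGTG in the 250 bases before the start. In a 126-base window the shares were 34.6%, 21.1%, 10.6% and 10.9%. Among the 35 members with an entry, 29 held a GC box in at least 1 of their promoters, 11 a CCAAT, 8 a TATAA and 8 an ACGTG. Genes can have several entries, so the share of genes is not on the same footing as the share of entries, and a match of letters is not a binding site.

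TOB2 itself, which reads the endogenous gene and any transgene reads assigned to it, ranged between 499 and 725 TPM in the induced libraries, against 92.3 to 267 TPM in the uninduced libraries. The depth of the libraries was unknown, since TPM adds up to the same total in each, so no counting error is given. The noncoding RNAs RMRP, MIR6723 and RPPH1 together took between 7.14% and 27.5% of the TPM of a library, a share that was highest early in the chase and that was largest in replicate 2 of induced cells at 0 and 0.5 h. The labels name the cells as epithelial cells of a bone osteosarcoma. Of 10 osteoblast markers, 3 were above the 1 TPM limit, and IBSP and DLX5 were at 0 in every library. Of 6 epithelial markers 3 passed, with KRT18 at 1584 TPM and KRT8 at 828 TPM on average and EPCAM at 0. Markers of leukocytes passed in 3 of 11 cases (LYZ, CD68, CD14), with PTPRC at 0.149 TPM, and those of endothelium in 2 of 6. Matrix glycoproteins of bone were low: SPARC averaged 0.198 TPM and FN1, fibronectin, 0.274 TPM, so neither is a member.

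A slope is the change in log2(TPM + 1) per hour of chase along a straight line fitted in each arm with limma. Since TPM is relative, a positive slope means that the gene's labelled RNA gained share against the rest of the labelled RNA of the same libraries, not that it grew in amount, and a negative slope means that it lost share. The 49 members together took 1656 and 1644 TPM at 6 h, against 844 and 714 TPM at 0 h, in induced cells. In uninduced cells they took 1283 and 1275 TPM at 6 h, against 749 and 618 TPM at 0 h. Their summed TPM at 6 h was thus 2.12 times that at 0 h in induced and 1.87 times in uninduced cells, and the libraries of the 2 times did not overlap in either arm. ITGB1 alone held 22.0% of the members' TPM and TIMP1 11.6%.

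In induced cells 33 of the 49 members rose along the chase (67.3%), against a background of 41.6% of all genes tested, and 4 fell, against a background of 29%. In uninduced cells 25 rose (51.0%), against a background of 42.8%, and 4 fell, against 22.3%. All 25 members that rose in uninduced cells were also among the 33 that rose in induced cells. This overlap was not counted over all genes, so it cannot be set against a background. LOXL3, MMP24 and ITGB8 fell in both arms, COL15A1 in induced cells (-0.06 log2 per hour) and ITGA2 in uninduced cells (-0.05). The median slope of the members was 0.10 log2 per hour in induced cells, where the median of all genes was 0.03, and 0.06 in uninduced cells, where that of all genes was 0.04. The counts depend on the scaling. With median-of-ratios scaling, which brought the median slope of all genes to -0.0041 in induced and -0.0052 in uninduced cells, 24 members rose and 7 fell in induced cells and 15 rose and 8 fell in uninduced cells. With this scaling 36.2% of all genes fell in induced and 32.3% in uninduced cells, and 35.0% of all genes rose in induced cells. In uninduced cells 30.6% of members and 30.3% of all genes rose, so that the members were at the background. The share of RMRP, MIR6723 and RPPH1 fell along the chase in both arms while the members rose. Without these 3 RNAs 24 members rose and 8 fell in induced cells, and 17 rose and 6 fell in uninduced cells. Of all genes 31.5% then rose in induced cells, and in uninduced cells the shares were 34.7% of members and 32.7% of all genes. Falls then made up 37.9% of all genes in induced and 29.6% in uninduced cells. With coding transcripts alone, which left 48 members, 23 rose and 7 fell in induced and 15 rose and 6 fell in uninduced cells. The shares of rises were 47.9% of members and 32.2% of all genes in induced cells, and 31.2% of members and 33.9% of all genes in uninduced cells. Falls made up 36.2% and 27.2% of all genes in induced and uninduced cells. With quantile normalization 34 rose and 1 fell in induced cells, and 23 rose and none fell in uninduced cells. Of all genes 40.5% and 35.0% rose and 27.8% and 23.2% fell. The 4 falls in uninduced cells were all lost on leaving out replicate 2 at 6 h of that arm.

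**Figure D1:**
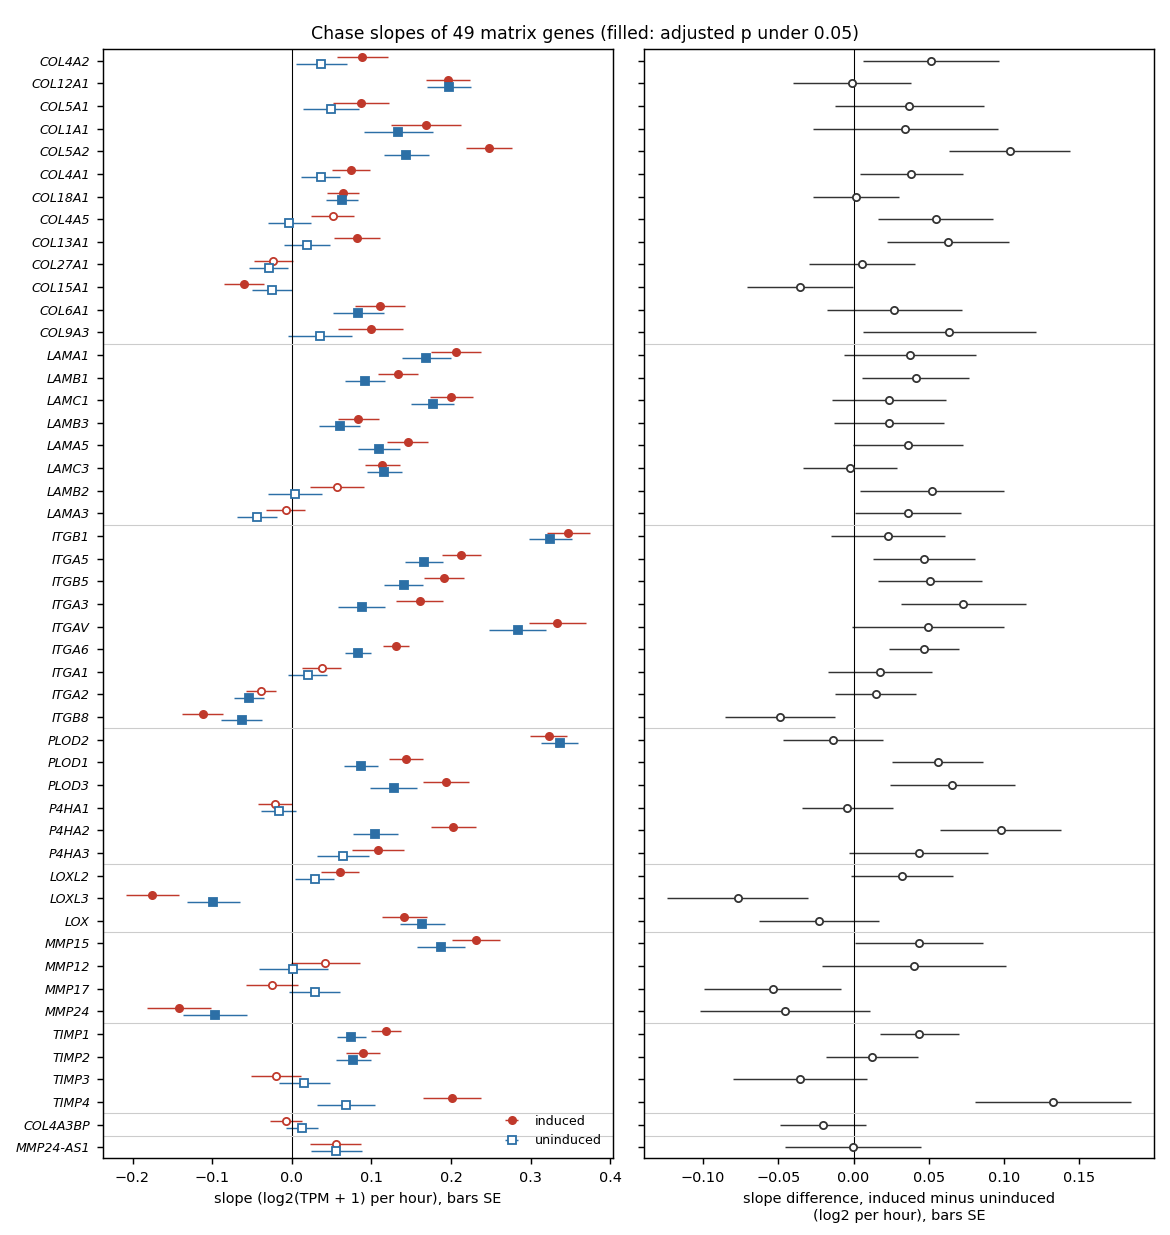
Left, the slope of each of the 49 members in log2(TPM + 1) per hour, with induced cells as red circles and uninduced cells as blue squares. Right, the slope in induced minus that in uninduced cells. Bars are standard errors, filled symbols have an adjusted p under 0.05, and horizontal lines divide the roles. ITGB1, ITGAV and PLOD2 lie furthest to the right in both arms, LOXL3 furthest to the left, and no symbol in the right panel is filled.

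The integrins included ITGB1, the steepest rise of the members in induced cells. In induced cells 6 of 9 rose and 1 fell, and in uninduced cells 6 rose and 2 fell. Summed, integrin mRNAs stood at 726 ± 1.97 TPM at 6 h, against 243 ± 36.8 TPM at 0 h, in induced cells (SD, n = 2 each). In uninduced cells they stood at 528 ± 4.60 TPM at 6 h, against 207 ± 24.3 TPM at 0 h. The 6 that rose were the same in both arms, an overlap not counted over all genes: ITGB1, ITGA5, ITGAV, ITGA3, ITGA6 and ITGB5. With median-of-ratios scaling 6 rose and 2 fell in induced cells, and 4 rose and 2 fell in uninduced cells. Rises made up 41.6% of all genes in induced and 42.8% in uninduced cells with TPM as deposited. With that scaling they made up 35.0% and 30.3%.

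ITGB1 encodes the beta chain shared by the receptors for fibronectin, collagen and laminin. In induced cells it had 133 and 104 TPM at 0 h, 146 and 138 at 0.5 h, 149 and 144 at 1 h, 269 and 239.9 at 2 h, 388 and 379 at 4 h and 473 and 471 at 6 h. In uninduced cells it had 101 and 93.7 TPM at 0 h, 109.7 and 113 at 0.5 h, 121 and 118 at 1 h, 185 and 178 at 2 h, 319 and 289.8 at 4 h and 340.2 and 348 at 6 h. Every induced library lay above both uninduced libraries of its time, and within each arm both libraries of 2, 4 and 6 h lay above all earlier ones. Its slope was 0.35 ± 0.03 log2 per hour in induced cells (SE, adjusted p = 7.0e-11) and 0.32 ± 0.03 in uninduced cells (adjusted p = 3.9e-10). By size these slopes ranked 79 and 94 from the top among the 13416 genes. Most of its TPM was assigned to the transcript NM_133376, at 187 of 223 TPM on average.

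ITGAV, the alpha chain of vitronectin receptors and the partner of ITGB5 and ITGB8, changed late. Induced cells had 10.7 and 7.61 TPM at 0 h, 10.3 and 9.48 at 0.5 h, 8.27 and 8.84 at 1 h, 12.8 and 9.49 at 2 h, 26.8 and 26.3 at 4 h and 34.6 and 31.4 at 6 h. Uninduced cells had 8.62 and 6.61 TPM at 0 h, 8.34 and 6.52 at 0.5 h, 6.90 and 7.13 at 1 h, 6.15 and 7.61 at 2 h, 18.4 and 17.2 at 4 h and 23.6 and 21.2 at 6 h. The level stayed near its start until 2 h and all libraries of 4 and 6 h lay above all earlier ones, so that a straight line is a rough summary: the slopes were 0.33 and 0.28 log2 per hour in induced and uninduced cells (SE 0.04 each, adjusted p = 1.5e-08 and 2.7e-07). Over the whole chase the mean log2 value of ITGAV was higher at 6 h than at 0 h by 1.76 in induced and by 1.45 in uninduced cells, whereas 2 h minus 0 h gave 0.26 and -0.13.

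ITGA5, which forms the main fibronectin receptor with ITGB1, had 87.7 and 98.7 TPM at 6 h, against 44.9 and 36.9 TPM at 0 h, in induced cells. The uninduced libraries held 63.8 and 64.9 TPM at 6 h, against 36.3 and 28.9 TPM at 0 h. Its slopes were 0.21 ± 0.02 and 0.17 ± 0.02 log2 per hour in induced and uninduced cells (SE, adjusted p = 3.0e-08 and 1.8e-06). ITGA3 and ITGA6, alpha chains of laminin receptors, rose by 0.16 and 0.13 log2 per hour in induced cells and by 0.09 and 0.08 in uninduced cells. ITGB5 rose by 0.19 and 0.14. The rise of ITGA3 in uninduced cells was lost with quantile and with median-of-ratios scaling.

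ITGB8, another partner of ITGAV, went the other way. The induced libraries held 4.70 and 3.28 TPM at 0 h, 4.82 and 3.29 at 0.5 h, 3.55 and 3.25 at 1 h, 2.40 and 2.43 at 2 h, 2.08 and 2.56 at 4 h and 2.40 and 2.06 at 6 h. Uninduced values were 3.13 and 3.01 TPM at 0 h, 2.63 and 2.21 at 0.5 h, 2.19 and 2.41 at 1 h, 2.33 and 2.08 at 2 h, 2.45 and 1.77 at 4 h and 1.87 and 1.85 at 6 h. In induced cells all libraries from 2 h on lay below all earlier ones. Its slope was -0.11 ± 0.03 log2 per hour in induced cells (SE, adjusted p = 4.8e-04) and -0.06 ± 0.03 in uninduced cells (adjusted p = 0.036), and with quantile normalization both fell short of the threshold. The collagen receptor chains ITGA1 and ITGA2 had no rise past the threshold. ITGA1 had slopes of 0.04 and 0.02 in induced and uninduced cells, neither past the threshold. ITGA2 had -0.04 in induced cells, not past the threshold, and -0.05 in uninduced cells (adjusted p = 0.016). Only 25.3% of the TPM of ITGA2 was assigned to its coding transcript, and with coding transcripts alone its uninduced slope was 0.04 with an adjusted p of 0.81.

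**Figure D2:**
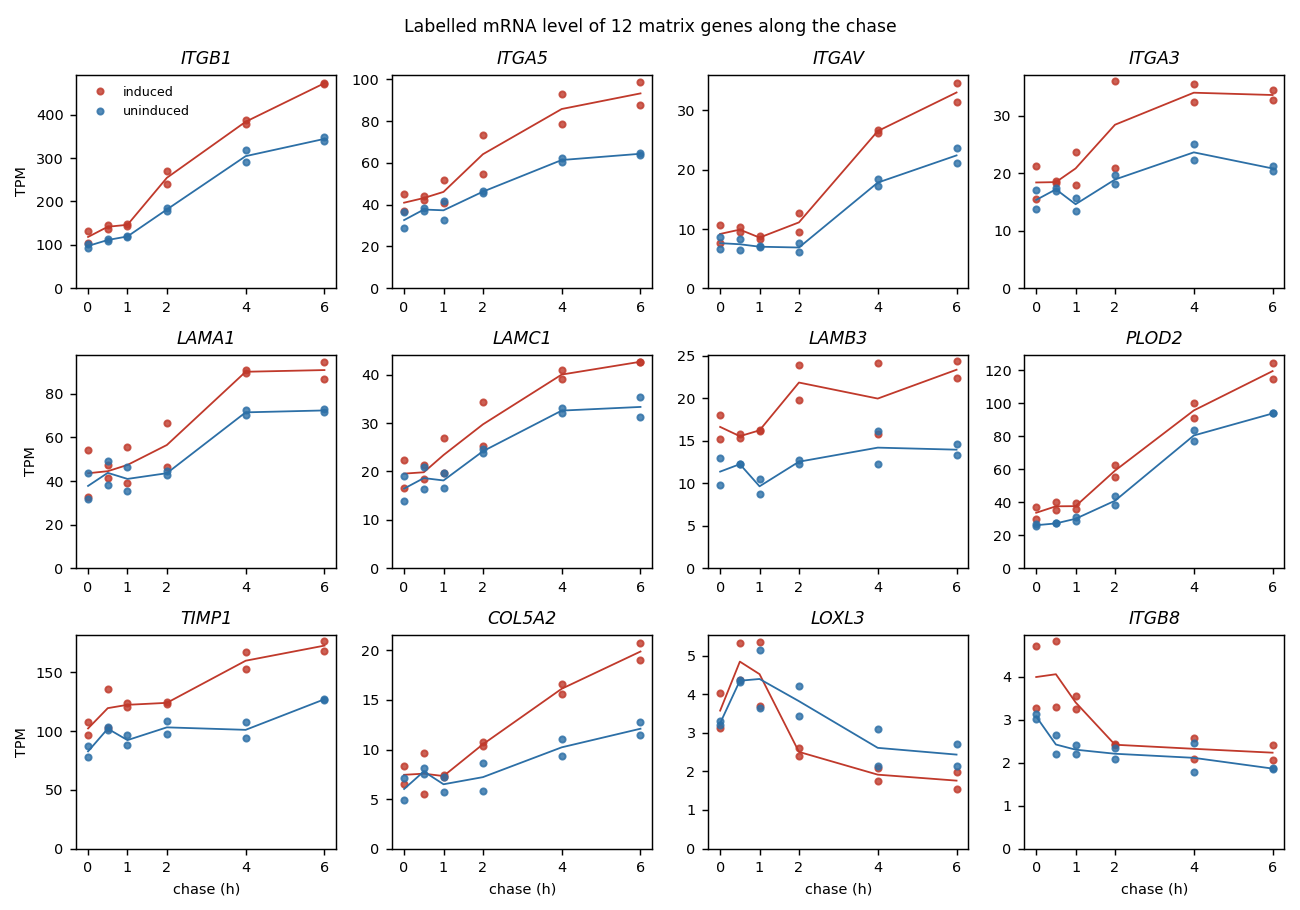
TPM of 12 members against hours of chase, 1 point for each library, with lines through the means of the 2 libraries of a time. Induced cells are red and uninduced cells blue, and each vertical axis starts at 0. ITGB1 and PLOD2 climb from 1 h on, ITGAV and LAMA1 climb after 2 h, and LOXL3 and ITGB8 end below their start.

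Of the 8 laminins, 6 rose in each arm and none fell with TPM as deposited: LAMA1, LAMA5, LAMB1, LAMB3, LAMC1 and LAMC3. Over all genes 41.6% rose and 29% fell in induced cells, and 42.8% rose and 22.3% fell in uninduced cells. LAMA1, LAMB1 and LAMC1 are the alpha, beta and gamma chains of the laminin of early basement membranes and were the most abundant. LAMA1 had 54.3 and 32.8 TPM at 0 h, 47.5 and 41.5 at 0.5 h, 55.4 and 39.3 at 1 h, 66.6 and 46.4 at 2 h, 90.8 and 89.3 at 4 h and 94.7 and 86.9 at 6 h in induced cells. It had 43.8 and 31.7 TPM at 0 h, 49.4 and 38.1 at 0.5 h, 46.3 and 35.7 at 1 h, 44.5 and 42.7 at 2 h, 70.4 and 72.5 at 4 h and 73.1 and 71.5 at 6 h in uninduced cells. In each arm the 4 libraries of 4 and 6 h lay above all earlier ones, and its slopes were 0.21 and 0.17 log2 per hour (SE 0.03 each, adjusted p = 2.6e-06 and 4.7e-05). LAMC1 rose by 0.20 in induced and by 0.18 in uninduced cells, and LAMB1 by 0.13 and 0.09.

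LAMB3, the beta chain of epithelial laminin, is known to assemble with LAMA3. LAMA3 averaged 3.20 TPM with no slope past the threshold (-0.01 and -0.04 in induced and uninduced cells). LAMB3 itself averaged 15.6 TPM and rose by 0.08 ± 0.03 log2 per hour in induced cells (SE, adjusted p = 0.0057) and by 0.06 ± 0.03 in uninduced cells (adjusted p = 0.044). With median-of-ratios scaling neither slope of LAMB3 passed, and 5 laminins rose in induced and 4 in uninduced cells, where LAMA3 fell. Of all genes 35.0% rose in induced and 30.3% in uninduced cells with that scaling. LAMA3 also fell in uninduced cells without the 3 noncoding RNAs and with coding transcripts alone. LAMB2, the beta chain of adult basement membranes, had slopes of 0.06 and 0.005 log2 per hour in induced and uninduced cells that did not pass.

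The collagens were spread more widely. In induced cells 10 of 13 rose and 1 fell, and in uninduced cells 5 rose and none fell. With median-of-ratios scaling 4 rose and 2 fell in induced cells, and 3 rose and 2 fell in uninduced cells. Of all genes 41.6% rose in induced and 42.8% in uninduced cells with TPM as deposited. These shares were 35.0% and 30.3% with median-of-ratios scaling. Of these counts of rising collagens, only that of induced cells with TPM as deposited was above the background. The 5 that rose in uninduced cells were COL12A1, COL5A2, COL1A1, COL6A1 and COL18A1. The steepest collagen slopes in induced cells were 0.25 log2 per hour for COL5A2, 0.20 for COL12A1 and 0.17 for COL1A1. In uninduced cells these genes had 0.14, 0.20 and 0.13, again the steepest. COL27A1 had -0.02 and -0.03 in induced and uninduced cells, neither past the threshold. COL12A1, a collagen that binds to the surface of fibrils, had 31.9 and 25.7 TPM at 6 h, against 16.0 and 10.6 TPM at 0 h, in induced cells. In uninduced cells it had 22.5 and 26.0 TPM at 6 h, against 12.8 and 10.4 TPM at 0 h, so the 2 times did not overlap in either arm.

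COL5A2, a chain of type V collagen, which sets the diameter of collagen fibrils, had the steepest collagen slope in induced cells. Induced values were 8.38 and 6.51 TPM at 0 h, 5.52 and 9.60 at 0.5 h, 7.24 and 7.40 at 1 h, 10.7 and 10.3 at 2 h, 15.6 and 16.7 at 4 h and 20.8 and 19.0 at 6 h. Uninduced cells had 7.14 and 4.89 TPM at 0 h, 8.09 and 7.48 at 0.5 h, 7.26 and 5.72 at 1 h, 5.81 and 8.61 at 2 h, 9.33 and 11.1 at 4 h and 11.4 and 12.8 at 6 h. The arms overlapped up to 1 h of chase and stood apart at 2, 4 and 6 h. The slopes were 0.25 ± 0.03 in induced cells (SE, adjusted p = 4.5e-08) and 0.14 ± 0.03 log2 per hour in uninduced cells (adjusted p = 1.1e-04). Its partner COL5A1 had 0.09 ± 0.04 in induced cells (adjusted p = 0.031) and 0.05 ± 0.04 in uninduced cells (adjusted p = 0.22).

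COL4A1 and COL4A2, the network chains of basement membranes that share the sequence between them shown above, had similar slopes. COL4A2 had 28.6 and 24.2 TPM at 6 h, against 21.4 and 14.3 TPM at 0 h, in induced cells, and 21.5 and 19.6 TPM at 6 h, against 20.5 and 12.8 TPM at 0 h, in uninduced cells. COL4A1 had 11.9 and 10.3 TPM at 6 h, against 10.1 and 7.40 TPM at 0 h, in induced cells, and 8.71 and 9.03 TPM at 6 h, against 9.14 and 6.38 TPM at 0 h, in uninduced cells. Both passed the threshold in induced cells, at 0.09 and 0.07 log2 per hour for COL4A2 and COL4A1, and neither did in uninduced cells, at 0.04 for each. COL4A5, a chain of the kidney and eye membrane network, had slopes of 0.05 and -0.003 in induced and uninduced cells that did not pass. COL15A1, which fell in induced cells, turned to 0.02 with quantile normalization (adjusted p = 0.51).

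Some chains that can assemble with these collagens did not reach 1 TPM. COL1A1 averaged 12.5 TPM, whereas its partner COL1A2 averaged 0.0012 TPM and COL3A1, the other main fibrillar chain, 0.0121 TPM. COL6A1, at 1.02 TPM, was just inside the limit, and its partner COL6A2 was at 0 in every library. COL9A3 was also just inside, at 1.01 TPM, and COL10A1, at 0.987 TPM, and COL4A6, at 0.942 TPM, were just outside it. Of 44 collagen symbols 31 did not reach 1 TPM.

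The 6 PLOD and P4HA genes, which encode lysyl hydroxylases and subunits of prolyl 4-hydroxylase, all reached 1 TPM. In induced cells 5 of 6 rose and in uninduced cells 4 of 6 rose, and none fell with TPM as deposited. Rises made up 41.6% of all genes in induced and 42.8% in uninduced cells. With median-of-ratios scaling 5 rose and none fell in induced cells, and 2 rose and 1, P4HA1, fell in uninduced cells. With coding transcripts alone 4 rose in induced and 2 in uninduced cells, and P4HA1 fell in both, as it did in induced cells without the 3 noncoding RNAs. In induced cells 35.0% of all genes rose with median-of-ratios scaling and 32.2% with coding transcripts alone. In uninduced cells these shares were 30.3% and 33.9%, so the 2 of 6 there were near the background. PLOD2, the lysyl hydroxylase that acts on the ends of collagen chains, led them. In induced cells it had 37.3 and 30.1 TPM at 0 h, 40.0 and 35.2 at 0.5 h, 36.0 and 39.4 at 1 h, 62.8 and 55.5 at 2 h, 91.2 and 99.97 at 4 h and 124 and 114 at 6 h. The uninduced libraries held 26.8 and 25.5 TPM at 0 h, 27.2 and 27.3 at 0.5 h, 28.7 and 31.4 at 1 h, 38.2 and 43.7 at 2 h, 77.1 and 83.8 at 4 h and 93.8 and 93.8 at 6 h. Every induced library lay above both uninduced libraries of its time. The slopes were 0.32 ± 0.02 and 0.34 ± 0.02 log2 per hour in induced and uninduced cells (SE, adjusted p = 2.6e-11 and 2.2e-11), ranks 138 and 73 from the top among all genes.

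Both RefSeq transcripts of PLOD2 rose, at different rates. The share of PLOD2 TPM assigned to NM_000935 was 68.6% ± 1.34 at 6 h, against 47.4% ± 6.72 at 0 h, in induced cells (SD, n = 2 each). In uninduced cells it was 63.2% ± 4.98 at 6 h, against 47.0% ± 14.9 at 0 h. The libraries of 6 h lay above those of 0 h in both arms, but by little in uninduced cells, at 59.6% and 66.7% at 6 h, against 36.5% and 57.5% at 0 h. In a fit over 21749 transcripts the slope of NM_000935 was 0.42 ± 0.05 in induced and 0.48 ± 0.05 in uninduced cells, and that of NM_182943 0.18 ± 0.03 and 0.19 ± 0.03 (SE). How reads were split between the transcripts is not given in the sources used here.

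PLOD1 and PLOD3, lysyl hydroxylases of the helical part of the chain, rose by 0.14 and 0.19 log2 per hour in induced cells and by 0.09 and 0.13 in uninduced cells. P4HA2, a catalytic subunit of prolyl 4-hydroxylase, had 8.29 and 10.0 TPM at 6 h, against 2.79 and 4.42 TPM at 0 h, in induced cells. Uninduced values were 7.19 and 5.93 TPM at 6 h, against 3.88 and 3.04 TPM at 0 h. Its slopes were 0.20 and 0.11 (SE 0.03 each, adjusted p = 9.5e-07 and 0.0025). P4HA1, the major subunit in most cells, averaged 18.5 TPM and had slopes of -0.02 in each arm that did not pass. P4HA3, at 2.21 TPM, rose in induced cells (0.11, adjusted p = 0.0051) but without passing with coding transcripts alone, and its locus overlaps that of PPME1.

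Lysyl oxidases were low, with a sum of 12.2 ± 0.69 TPM at 6 h, against 10.8 ± 1.56 TPM at 0 h, in induced cells (SD, n = 2 each). LOXL3, which belongs to the same enzyme family, had the steepest fall of the members in both arms. Induced cells had 4.02 and 3.13 TPM at 0 h, 5.33 and 4.36 at 0.5 h, 5.35 and 3.69 at 1 h, 2.60 and 2.41 at 2 h, 1.75 and 2.08 at 4 h and 1.98 and 1.54 at 6 h. In uninduced cells it had 3.31 and 3.19 TPM at 0 h, 4.32 and 4.38 at 0.5 h, 5.14 and 3.65 at 1 h, 3.43 and 4.21 at 2 h, 3.09 and 2.13 at 4 h and 2.72 and 2.15 at 6 h. Means were highest at 0.5 or 1 h, and in induced cells every library from 2 h on lay below every earlier one. The slope was -0.18 ± 0.03 log2 per hour in induced cells (SE, adjusted p = 5.2e-05) and -0.10 ± 0.03 in uninduced cells (adjusted p = 0.012). The slope in uninduced cells did not pass with quantile normalization or with the chase up to 4 h alone. LOX, the founding member of the family, rose by 0.14 in induced and by 0.16 in uninduced cells, and LOXL2 by 0.06 in induced cells (adjusted p = 0.027), with 0.03 in uninduced cells (adjusted p = 0.30).

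Of 24 metalloproteinase symbols only MMP15, MMP17, MMP24 and MMP12 reached 1 TPM, and the first 3 are membrane-bound enzymes. MMP15 rose in both arms. It had 24.2 and 26.6 TPM at 6 h, against 12.6 and 10.5 TPM at 0 h, in induced cells, and 27.5 and 22.9 TPM at 6 h, against 13.9 and 9.86 TPM at 0 h, in uninduced cells. Its slopes were 0.23 and 0.19 log2 per hour (SE 0.03 each, adjusted p = 3.0e-07 and 8.0e-06). MMP24 fell by 0.14 log2 per hour in induced cells (adjusted p = 0.0029) and by 0.10 in uninduced cells (adjusted p = 0.038). It averaged 1.34 TPM and overlaps the 21.4 TPM of MMP24-AS1, whose slopes of 0.06 in each arm did not pass. MMP12 and MMP17 had no slope past the threshold in either arm.

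TIMP1, a secreted inhibitor of most metalloproteinases, was the second most abundant member. The induced libraries held 96.7 and 108 TPM at 0 h, 103 and 136 at 0.5 h, 124 and 121 at 1 h, 123 and 125 at 2 h, 153 and 167 at 4 h and 168 and 177 at 6 h. Uninduced cells had 87.5 and 77.9 TPM at 0 h, 103 and 101 at 0.5 h, 88.1 and 96.5 at 1 h, 97.6 and 109 at 2 h, 94.2 and 108 at 4 h and 127 and 127 at 6 h. Both arms were higher at 6 h than in any 0 h library. The slopes were 0.12 ± 0.02 and 0.07 ± 0.02 log2 per hour in induced and uninduced cells (SE, adjusted p = 4.0e-06 and 0.0011). The uninduced slope depends on the scaling: it did not pass with median-of-ratios scaling and was -0.01 with quantile normalization. With median-of-ratios scaling, without the 3 noncoding RNAs or with coding transcripts alone, 2 of the 4 inhibitors rose in induced cells and none did in uninduced cells. Over all genes between 31.5% and 35.0% rose in induced and between 30.3% and 33.9% in uninduced cells in these settings. With quantile normalization 1 rose in each arm, where 40.5% of all genes rose in induced and 35.0% in uninduced cells. With TPM as deposited TIMP2 rose by 0.09 and 0.08 in induced and uninduced cells, calls that were lost under all 4 of these settings, TIMP4, at 1.59 TPM, by 0.20 in induced cells (adjusted p = 3.4e-05), and TIMP3 had slopes of -0.02 and 0.02 that did not pass.

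The question the design asks is whether decay differs with the mutant, and for a gene this is the difference of the slopes, induced minus uninduced. None of the 49 members passed in limma, in either direction. Over all genes 0.00745% had a larger and 0.335% a smaller slope in induced cells, so a count of 0 is near the background. Without adjustment 3 of the 49 members had a limma p under the threshold, against 1673 of the 13416 genes. COL5A2 had a difference of 0.10 ± 0.04 log2 per hour (adjusted p = 0.26), TIMP4 0.13 ± 0.05 (adjusted p = 0.27) and P4HA2 0.10 ± 0.04 (adjusted p = 0.30; SE). For the steepest genes the difference was small beside its error: 0.02 ± 0.04 for ITGB1, 0.05 ± 0.05 for ITGAV and -0.01 ± 0.03 for PLOD2. The estimate was above 0 for 36 of the 49 members, with a median of 0.04, where the median of all genes was -0.01.

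The level of the members was compared between the arms apart from the slope. In bulk RNA, fewer cells that express a gene and less RNA per cell cannot be told apart. At 0 h no member differed past the threshold, where 0.0224% of all genes were higher and 0.00745% lower in induced cells. Without adjustment 4 of the 49 members had a limma p under the threshold at 0 h, against 881 of the 13416 genes. At 6 h 5 members were higher in induced cells (10.2% of the 49), against a background of 1.1%, and none was lower, against a background of 8.04%. Averaged over the 6 times, 15 members were higher in induced cells (30.6%), against a background of 14.3%, and 1 was lower, against a background of 11.4%. With quantile normalization these counts were 14 higher and 4 lower, and with median-of-ratios scaling 17 and 3. Over all genes the shares were 14.9% higher and 15.7% lower with quantile normalization, and 14.2% higher and 16.8% lower with median-of-ratios scaling. The median of this mean difference was 0.17 log2 for the members and 0.05 for all genes.

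The 5 genes higher at 6 h were ITGB1, ITGA5, ITGA3, LAMB3 and TIMP1. LAMB3 had 24.4 and 22.4 TPM in induced cells, against 13.3 and 14.6 TPM in uninduced cells, a log2 difference of 0.70 ± 0.18 (SE, adjusted p = 0.018). ITGA3 had 34.5 and 32.7 TPM in induced cells, against 21.2 and 20.4 TPM in uninduced cells (0.66 ± 0.20, adjusted p = 0.047). ITGB1, with a difference of 0.46 ± 0.10 (adjusted p = 0.0072), was 1.37 times as high in induced as in uninduced cells. ITGA5 differed by 0.53 ± 0.16 (adjusted p = 0.049) and TIMP1 by 0.44 ± 0.12 (adjusted p = 0.025). The call of TIMP1 was lost with median-of-ratios scaling, without the 3 noncoding RNAs and with coding transcripts alone. The other 4 calls were kept in each of these settings. All 5 calls at 6 h rest on few libraries. Leaving out replicate 1 of either arm at 6 h ended all 5 of them, and leaving out replicate 2 of either arm at 6 h left ITGB1 alone. Leaving out either library of induced cells at 4 h, or of uninduced cells at 0.5, 2 or 4 h, left 3 calls, and leaving out either library of induced cells at 0.5 h left 3 of these 5 among 4 calls. Without a 6 h library the differences stayed between 0.40 and 0.77 log2. With 1 library left in a group, that library was assumed to vary like the other groups.

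Averaged over the 6 times, 6 of 9 integrins were higher in induced cells: ITGAV by 0.43, ITGA3 by 0.42, ITGA5 by 0.38, ITGB1 by 0.36, ITGA2 by 0.30 and ITGB8 by 0.27 log2. The estimate was above 0 for all 9. The induced mean of each of these 6 was the higher one at 6 of 6 times. Of the laminins LAMB3, LAMC1 and LAMB1 were higher, by 0.57, 0.26 and 0.23. Across the chase LAMB3 ranged between 15.3 and 24.4 TPM in induced cells, with a median of 17.2, and between 8.78 and 16.1 TPM in uninduced cells, with a median of 12.3. Its difference was 0.56 log2 among the libraries of replicate 1 and 0.58 among those of replicate 2.

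Of the hydroxylases PLOD2 (0.37), P4HA3 (0.30) and P4HA2 (0.25) were higher, of the inhibitors TIMP1 (0.38) and TIMP2 (0.19), and of the collagens COL5A2 (0.36). The differences of LAMB1, P4HA2 and TIMP2 were lost on leaving out single libraries, in 14, 13 and 9 of the 24 cases. For ITGA2 the difference was -0.05 with coding transcripts alone (adjusted p = 0.89). COL5A2 was above both uninduced libraries in both induced libraries at 3 of 6 times. TIMP3, at 0.23, did not pass, and its difference was 0.01 among the libraries of replicate 1 and 0.44 among those of replicate 2.

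MMP17, a membrane-anchored metalloproteinase, was the member that was lower in induced cells, by 0.39 ± 0.10 log2 (SE, adjusted p = 0.0097). Induced values were 1.55 and 1.47 TPM at 0 h, 1.37 and 1.18 at 0.5 h, 1.38 and 1.39 at 1 h, 0.98 and 1.15 at 2 h, 0.74 and 1.35 at 4 h and 0.89 and 1.73 at 6 h. The uninduced libraries held 2.84 and 1.89 TPM at 0 h, 1.45 and 2.29 at 0.5 h, 1.3 and 1.82 at 1 h, 1.49 and 1.63 at 2 h, 2.05 and 2.33 at 4 h and 2.86 and 1.77 at 6 h. Both induced libraries lay below both uninduced ones at 5 of 6 times. At 1.62 TPM on average it is near the limit of the filter, and with a limit of 5 TPM it was not tested.

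**Figure D3:**
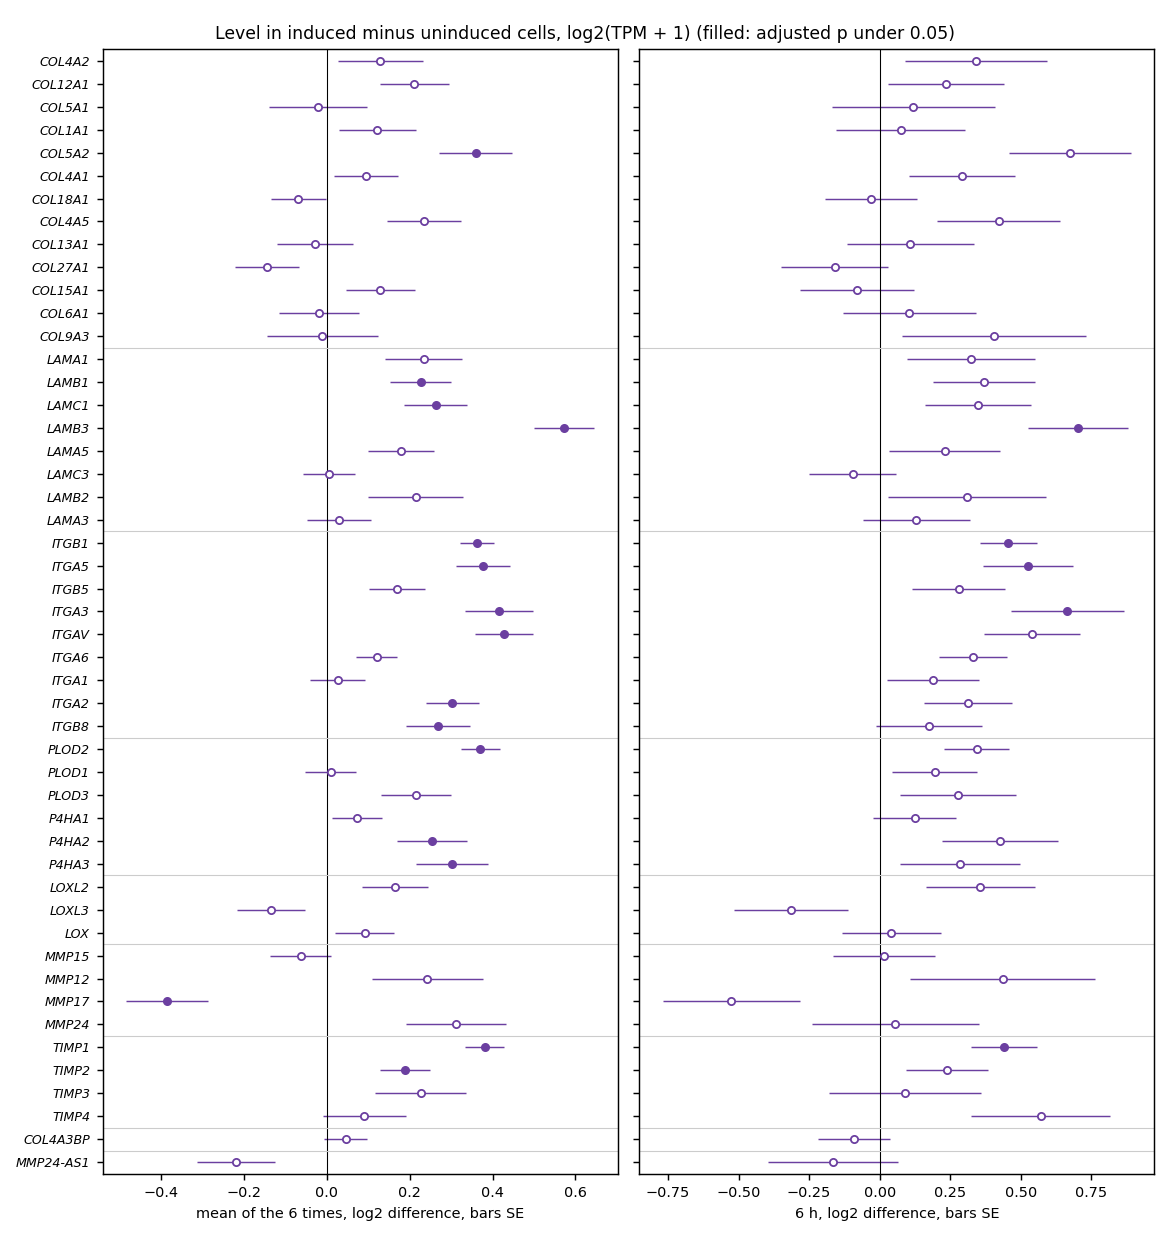
Log2(TPM + 1) in induced minus uninduced cells for the 49 members, averaged over the 6 times on the left and at 6 h on the right. Bars are standard errors and filled symbols have an adjusted p under 0.05. On the left 15 filled symbols lie right of 0 and 1, MMP17, left of it. On the right 5 lie right of 0.

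Chains that assemble with each other can be compared in each library, on the TPM scale, which is per length. The TPM of ITGB1 was 2.55 ± 0.08 times that of all alpha chains together at 6 h, against 1.35 ± 0.05 times at 0 h, in induced cells (SD, n = 2 each). In uninduced cells it was 2.69 ± 0.06 times at 6 h, against 1.34 ± 0.12 times at 0 h. The ratio of ITGA5 to ITGB1 was accordingly 0.20 at 6 h, against 0.35 at 0 h, in induced cells, and 0.19 at 6 h, against 0.33 at 0 h, in uninduced cells. The ratio of ITGAV to ITGB5 was 0.50 ± 0.02 at 6 h, against 0.27 ± 0.04 at 0 h, in induced cells, and 0.41 ± 0.03 at 6 h, against 0.23 ± 0.01 at 0 h, in uninduced cells. In each of these ratios the 2 times did not overlap in either arm.

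LAMA1 kept close to LAMC1, at between 1.80 and 2.42 times its TPM in all 24 libraries. LAMB1 did not: its ratio to LAMC1 was 1.00 ± 0.08 at 6 h, against 1.36 ± 0.04 at 0 h, in induced cells, and 0.99 ± 0.08 at 6 h, against 1.48 ± 0.12 at 0 h, in uninduced cells. The ratio of COL4A2 to COL4A1 ranged between 1.72 and 2.94 with a median of 2.41. The ratio of COL5A1 to COL5A2 was 0.94 ± 0.09 at 6 h, against 1.68 ± 0.16 at 0 h, in induced cells, and 1.43 ± 0.29 at 6 h, against 2.17 ± 0.41 at 0 h, in uninduced cells. These ratios were not tested.

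**Figure D4:**
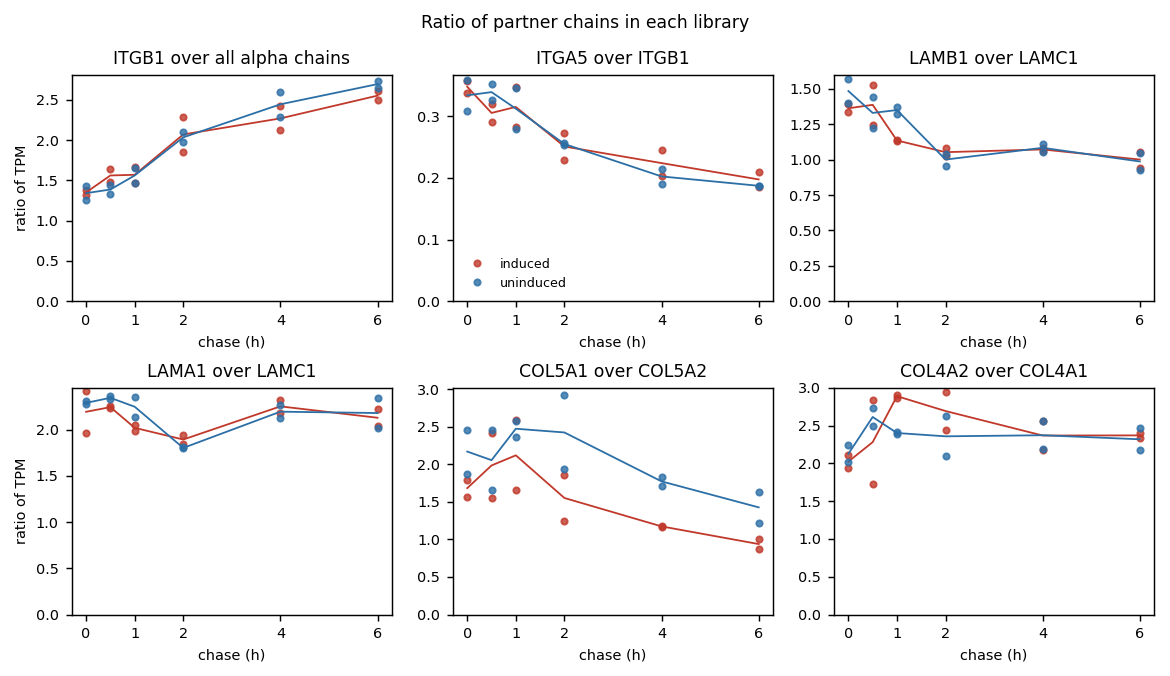
Ratio of the TPM of partner chains in each library against hours of chase, with lines through the means of the 2 libraries of a time. Induced cells are red and uninduced cells blue. The libraries of the arms overlap at 4 of 6 times in the ratio of ITGB1 to all alpha chains, at 5 of 6 in that of ITGA5 to ITGB1 and at 4 of 6 in that of LAMB1 to LAMC1, and the ratio of COL5A1 to COL5A2 ends lower in induced cells.

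The timing of the gain was described by the change between pairs of times. Between 0 and 1 h the median log2 change of the 49 was 0.05 in induced cells, where that of all genes was 0.12, and 0.04 in uninduced cells, where that of all genes was 0.09. Between 0 and 2 h the median of the members was 0.28 in induced cells, where that of all genes was 0.18, and 0.09 in uninduced cells, where that of all genes was 0.14. Between 2 and 6 h it was 0.28 in induced cells, where that of all genes was 0.00, and 0.22 in uninduced cells, where that of all genes was 0.11. The highest mean fell at 6 h for 27 members in induced and for 21 in uninduced cells, and at 4 h for 11 and 13. This count was not made for all genes, so it cannot be set against a background.

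Genes that work with the members were taken from lists by function. Their counts stand against all genes tested, of which 41.6% rose in induced and 42.8% in uninduced cells. Falls made up 29% and 22.3%. Of 13 genes for collagen folding and processing, 11 rose in each arm and none fell, with COLGALT1, a collagen galactosyltransferase, and P4HB, the beta subunit of prolyl 4-hydroxylase, at 0.27 log2 per hour each in induced cells and at 0.24 and 0.23 in uninduced cells. Of 13 genes for the export of large cargo from the endoplasmic reticulum, 10 rose in induced and 12 in uninduced cells, among them the coat protein SEC13 (0.23 and 0.18) and the GTPase SAR1A (0.23 and 0.23). Of 21 genes of the integrin adhesion complex, 16 rose and 2 fell in induced cells and 12 rose and 2 fell in uninduced cells. PXN, paxillin, rose by 0.25 and 0.23 and ACTN1, an actinin, by 0.20 and 0.18.

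Other matrix glycoproteins were split: of 13, 8 rose and 2 fell in induced cells, and 7 rose and 2 fell in uninduced cells. Both that fell encode matricellular proteins, CYR61 by 0.52 and CTGF by 0.45 log2 per hour in induced cells and by 0.37 and 0.30 in uninduced cells. Of 15 other matrix proteases and inhibitors, 7 rose in each arm, and 1 fell in induced and 2 in uninduced cells. Their share of rises was near that of all genes, 41.6% in induced and 42.8% in uninduced cells. ADAM17 and ADAM9, membrane-bound sheddases, rose by 0.22 and 0.18 in induced and by 0.20 and 0.13 in uninduced cells. The counts of these lists were not recomputed under other scalings. No gene of these 5 lists had a slope difference past the threshold in limma. For the mean level over the chase, 9 of the 15 proteases and inhibitors were higher and 1 lower in induced cells, with ADAM9 at 0.71. Of the 21 adhesion genes 1 was higher and 2 were lower. Over all genes 14.3% were higher and 11.4% lower.

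For 9 members the locus overlaps that of another gene that was tested, and whether the counting used strand is not given, so reads of the pair cannot be told apart. They are COL18A1, COL4A3BP, COL9A3, ITGA1, LOX, LOXL3, MMP24, MMP24-AS1 and P4HA3. No member shared its values in all libraries with another gene kept.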

How the data were processed

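Labelled RNA was measured in 24 libraries, 2 for each arm and chase time. The deposited values are TPM per RefSeq transcript, as the authors computed them; Trim Galore, Bowtie2, RSEM 1.3.0 and hg19 are named, with no role or order, per the submitters' processing notes. Strand, read split and depth are not given in the sources used here, so no counting error can be stated.

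TPM was summed per gene symbol, and the 13416 of 25341 genes whose average reached 1 TPM were kept. Tests were run on log2(TPM + 1), which understates the change of low genes, with limma 3.58.1 in R 4.3.3 (trended empirical Bayes, two-sided, Benjamini-Hochberg over all 13416 genes, threshold 0.05). A model with 1 line per arm gave slopes and their difference. A model with 12 group means gave level differences at 0 h, at 6 h and averaged over the 6 times. The scripts were tested on simulated data. Python 3.11.15, pandas 2.3.3, numpy 2.4.6 and matplotlib 3.10.9 made the descriptions and figures. Promoter sequences are from RefSeq, GRCh38.p14, and 35 of the 49 members had an entry.

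The members and lists were chosen with earlier results of these data known. Named by rule were TOB2, the 3 most abundant members of each role, in each comparison the 3 members past the threshold with the largest estimates in each direction (where fewer passed, also the one with the smallest p that did not), and up to 2 genes of each other list with the smallest p. The other genes in the text were chosen after their values were seen. The alternatives tried were other pseudocounts, filters, scalings, chase ranges, a replicate term, no variance trend, coding transcripts alone and leaving out libraries. Some items are not reported here.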

Additional observations from a re-analysis of the deposited data

How the results depend on the processing

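No member passed the test of a slope difference or of a 0 h difference under any alternative run. The 33 rises in induced cells ranged between 24 and 34 on leaving out libraries, and the 4 falls between 2 and 5, with 2 without replicate 1. The falls numbered 0 with a limit of 5 TPM, 1 with quantile normalization and 7 with median-of-ratios scaling. They numbered 8 without RMRP, MIR6723 and RPPH1 and 7 with protein-coding transcripts alone. Of all genes 36.2% fell in induced cells with median-of-ratios scaling, 37.9% without these RNAs and 36.2% with protein-coding transcripts alone. The 25 rises in uninduced cells numbered 15 with median-of-ratios scaling, 15 with protein-coding transcripts alone and 16 with the chase up to 4 h, and between 15 (without replicate 2) and 26 on leaving out libraries. The 4 falls there numbered 0 with a limit of 5 TPM, 0 with quantile normalization, 8 with median-of-ratios scaling and 0 up to 4 h. On leaving out libraries they numbered between 0 and 4. With median-of-ratios scaling 32.3% of all genes fell in uninduced cells. Rises there made up 30.6% of members and 30.3% of all genes with that scaling. With protein-coding transcripts alone they made up 31.2% and 33.9%. With the chase up to 4 h 5200 of the 13416 genes rose in uninduced cells, so the 16 of 49 members lay below the background. No share of all genes is given for the counts on leaving out libraries, so they are not set against a background. The 5 members higher at 6 h numbered 3 with no filter and 3 with no variance trend, and between 0 and 7 on leaving out libraries. The 15 members with a higher mean level numbered between 12 and 21 on leaving out libraries. The 1 lower member numbered 0 with a limit of 5 TPM, 4 with quantile normalization and 3 with median-of-ratios scaling, and 1 to 2 on leaving out libraries. The cause of these shifts was not tested, beyond the smaller number of genes under the stricter filter.

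Some estimates turned. With quantile normalization the slope was 0.018 for COL15A1 (adjusted p = 0.51) and 0.057 for LAMA3 (adjusted p = 0.038) in induced cells, and -0.0060 for TIMP1 in uninduced cells (adjusted p = 0.83). With protein-coding transcripts alone ITGA2 had a slope of 0.038 in uninduced cells (adjusted p = 0.81) and a mean difference of -0.047 (adjusted p = 0.89).

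Libraries with the same replicate number deviated together weakly: over 66 pairs of groups the correlation of deviations ranged between -0.0364 and 0.2527, with a median of 0.0975, and 29 were over 0.1. Since not every pair was, the number was not taken as a pairing. With the replicate block 23 members were higher and 2 lower in mean level, where 21.3% of all genes were higher and 13.9% lower, and 7 were higher at 6 h, where 3.03% of all genes were higher. Level comparisons could not be tested within 1 replicate alone, since no residual degrees of freedom remained. With 2 libraries per group and no depth, small differences of genes near 1 TPM cannot be resolved.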

Other observations

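COL12A1 has 2 transcripts in the table, and they changed differently along the chase. The transcript NM_080645 stood at 0.04 ± 0.06 TPM at 6 h, against 2.06 ± 0.01 TPM at 0 h, in induced cells (SD, n = 2 each), and at 0.04 ± 0.05 TPM at 6 h, against 1.70 ± 1.19 TPM at 0 h, in uninduced cells. The transcript NM_004370 stood at 28.8 ± 4.34 TPM at 6 h, against 11.2 ± 3.87 TPM at 0 h, in induced cells, and at 24.2 ± 2.57 TPM at 6 h, against 9.87 ± 2.89 TPM at 0 h, in uninduced cells. These values were singled out after they were seen and were not tested.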
